A study of Homo sapiens with 6 samples.

Results

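The Wnt target and feedback genes described here are DKK1, AXIN1, AXIN2, LGR5, ASCL2, RNF43, ZNRF3, NKD1, TCF7 and CTNNB1. They were taken from the tables by gene symbol, from a list drawn up with earlier results of these data known, and all 10 had a row among the 28491 genes with deposited read counts. The counts come from poly(A) RNA-seq of HCT116, an established human colorectal carcinoma line, harvested 48 h after plasmid transfection by lipofection. Control cells (NC, n = 3 libraries) received a control plasmid, and the other cells (RBM47-OE, n = 3 libraries) received a plasmid that overexpresses RBM47, an RNA-binding protein. The labels name pcDNA3.1-3xFlag-RBM47 and DMEM, whereas the study's methods name a pIRES-hrGFP-1a vector and McCoy's 5A medium. All 6 libraries thus share 1 cell line, transient transfection and a single harvest time, and nothing states that the 3 libraries of a group came from separate cultures, so p-values measure only the spread between these libraries.

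In the canonical Wnt pathway, a ligand binds Frizzled and LRP receptors and stops the destruction complex, built on the AXIN scaffolds with APC and the kinase GSK3, from marking β-catenin for degradation. β-catenin, the product of CTNNB1, then joins TCF and LEF factors on DNA and turns on target genes, and several of these targets feed back on the pathway: DKK1 blocks LRP receptors, AXIN2 rebuilds the destruction complex, RNF43 and ZNRF3 remove Frizzled from the membrane, and NKD1 binds Dishevelled. HCT116 cells carry a mutation of CTNNB1 that activates the pathway downstream of the receptors. RBM47 is known to bind U-rich and AU-rich stretches of RNA, often in 3′ UTRs, and DKK1 mRNA is known as one of its targets in breast cancer cells. The comparison of RBM47-OE with NC asks how the RNA of these genes stands when RBM47 is raised.

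The AU-rich stretches of the DKK1 transcript are shown first, although its counts of these motifs were near the median of all genes, as given below. DKK1 (ENSG00000107984.10) spans chr10:52314281-52318042 on the plus strand of GRCh38. Its canonical transcript in GENCODE release 44 has a 3′ UTR of 850 bases with 35.3% U, 3 copies of ATTTA and 4 runs of at least 5 T (sequences are written in DNA letters, 5′ to 3′). The 3 copies of ATTTA are in capitals in the following 3′ UTR stretches of 29 bases, which lie at chr10:52317197-52317225, chr10:52317352-52317380 and chr10:52317359-52317387, so that the last pair overlap.
DKK1 3′ UTR position 402: accctttaccccATTTAattctagagtct
DKK1 3′ UTR position 557: ttttgaaataaaATTTAacatttaatatc
DKK1 3′ UTR position 564: ataaaatttaacATTTAatatcatgaaat

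CTNNB1 held the longest T runs of the 10 genes, of 19 and 25 bases, in capitals in the 2 stretches below (chr3:41239917-41239945 and chr3:41239985-41240013, plus strand). Its 3′ UTR of 1101 bases had 37.4% U, 10 T runs and 1 copy of ATTTA.
CTNNB1 3′ UTR position 580: ttaaaTTTTTTTTTTTTTTTTTTTaagaa
CTNNB1 3′ UTR position 645: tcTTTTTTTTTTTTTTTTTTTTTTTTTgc

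Over the 3′ UTRs of 13189 tested protein-coding genes the median was 29.5% U, with quartiles of 24.6% and 33.6%, so DKK1, CTNNB1 and LGR5 (34.1% U) lay above the upper quartile. AXIN2 (32.8% U) and ZNRF3 (30.2% U) lay between the median and the upper quartile, and NKD1 (25.4% U) below the median. AXIN1 (22.6%), RNF43 (23.0%), TCF7 (22.4%) and ASCL2 (18.1%) lay below the lower quartile. The copies of ATTTA numbered 21 in the long NKD1 3′ UTR of 15468 bases, 11 in ZNRF3, 7 in LGR5, 3 each in AXIN2 and RNF43, 1 in TCF7 and 0 in AXIN1 and ASCL2, against a median of 2 over all genes. The upper quartile was 6 copies, so DKK1 with 3 lay between the median and the upper quartile. For T runs the median was 4 and the upper quartile 11. DKK1 with 4 runs was thus at the median, and CTNNB1 with 10 was below the upper quartile. A match of letters is a description and does not show binding.

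Promoters were searched for the core letters that TCF and LEF factors recognise, CTTTGNN with A or T at each N, on both strands. RefSeq promoters (GRCh38.p14, 300 bases around the start) were on hand for DKK1, AXIN1, RNF43, TCF7 and CTNNB1, and the other 5 genes were not searched. DKK1 held 2 matches in its promoter, which begin 95 and 76 bases before the start (chr10:52314175-52314203 and chr10:52314194-52314222, plus strand). One of 2 TCF7 promoters held 1 match on the minus strand, shown as AACAAAG on the plus strand, 50 bases before the start (chr5:134123557-134123585). Matches are in capitals in the 29-base stretches.
DKK1 promoter, CTTTGAA: ccctcccagcgCTTTGAAatcccatcccg
DKK1 promoter, CTTTGTT: tcccatcccggCTTTGTTgtctccctccc
TCF7 promoter, CTTTGTT on the minus strand: ggccccactggAACAAAGgaggagagagg

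Of 35116 promoters of the same length, 13.8% held at least 1 match and 1.58% held at least 2. No match lay in the AXIN1, RNF43 and CTNNB1 windows or in the other TCF7 promoter, which says only that these letters are not in those windows.

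The other genes lie on GRCh38 at chr16:287440-352723 (AXIN1, minus strand), chr17:65528563-65561648 (AXIN2, minus), chr12:71439798-71586310 (LGR5, plus), chr11:2268498-2270588 (ASCL2, minus) and chr17:58353676-58417595 (RNF43, minus). ZNRF3 spans chr22:28883572-29057488, NKD1 chr16:50548396-50649249, TCF7 chr5:134114681-134151865 and CTNNB1 chr3:41194741-41260096, all on the plus strand.

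RBM47 itself was checked before the Wnt genes. Its counts were 501, 797 and 552 with NC against 41818, 38577 and 34858 with RBM47-OE, and the log2 fold change was 5.90 (SE 0.0964, adjusted p = 1.69e-25, edgeR). Reads from the plasmid and from the cells' own gene cannot be told apart. RBM47-OE replicate 1 stood apart from its group in the chi-square of counts per degree of freedom. This was 17.9 and 19.6 against RBM47-OE replicates 2 and 3, whereas those replicates differed from each other by 9.02. Against NC replicates 1, 2 and 3 the values for RBM47-OE replicate 1 were 16.9, 22.6 and 17.8. For RBM47-OE replicates 2 and 3 the values against the NC libraries lay between 42.3 and 56.7. By this measure RBM47-OE replicate 1 was nearer to NC than the other RBM47-OE libraries were. Each library held between 26792409 and 35477983 counts on genes. Of 8 epithelial markers, 6 were abundant, with mean FPKM in NC from 13.1 (CDH1) to 971.7 (KRT19), whereas the intestinal differentiation genes VIL1 (0.0633 FPKM) and CDX1 (0.0167 FPKM) were near 0. Of 12 fibroblast, leukocyte and endothelial markers with a row, COL1A1 was highest at 1.53 FPKM in both groups, and the other 11 had mean FPKM no higher than 0.31 in either group.

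Ordered by FPKM, which scales reads by gene length and library size, DKK1 was the most abundant of the 10 genes in NC at 39.9 ± 2.05 FPKM (mean ± SD, n = 3), above 94.3% of 16368 protein-coding genes. CTNNB1 followed at 25.6 ± 0.976 FPKM, above 90.9% of them. The others were lower, with 4.94 ± 0.344 FPKM for RNF43, 4.20 ± 0.145 for AXIN1, 3.89 ± 0.304 for ZNRF3, 3.41 ± 0.0907 for TCF7, 3.10 ± 0.180 for AXIN2 and 1.73 ± 0.0656 for NKD1 (SD, n = 3). Between neighbours in this order, only AXIN1 and ZNRF3 had overlapping replicate ranges. In RBM47-OE the order began and ended with the same genes, DKK1 at 37.6 ± 4.84 FPKM, CTNNB1 at 27.5 ± 2.59 FPKM and NKD1 at 1.98 ± 0.0751 FPKM (SD, n = 3). AXIN2 (3.23 ± 0.382 FPKM) then stood next to TCF7 (2.94 ± 0.350 FPKM) with overlapping ranges. These orders depend in part on gene length, and the length behind the deposited FPKM is not given in the sources used here. The merged exons of all annotated transcripts span 2221 bases for DKK1 and 11759 for CTNNB1, which can exceed the length of the RNA expressed. The place of DKK1 above CTNNB1 thus holds for FPKM only. In CPM (counts scaled to a common library size), CTNNB1 (mean 349.0 in NC) stood above DKK1 (102.9). AXIN2 (18.8 CPM in NC) was lowest of the genes named here. NKD1, with 17359 exonic bases, had 34.9 CPM in NC, beside 36.3 for RNF43 and 36.8 for AXIN1. The level of RNF43 is uncertain, as a readthrough gene (11.2 FPKM in NC) shares exonic bases with it on the same strand.

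LGR5 and ASCL2, which mark intestinal stem cells (an R-spondin receptor and a transcription factor), were at or near 0. LGR5 had 6 counts in RBM47-OE replicate 1 and 0 counts in the other 5 libraries. ASCL2 had 2 counts in RBM47-OE replicate 3 and 0 counts in the other 5. A count of 0 allows a level of up to 0.0868 to 0.114 CPM (counts scaled to a common library size; the limit is 3 counts in each library and covers counting error only). Neither gene passed the filter on low counts, so the tests below cover 8 of the 10 genes and no fold is given for these genes.

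Among the 8 tested genes, 1 passed an adjusted p under 0.05 in edgeR's quasi-likelihood test: TCF7, which was lower in RBM47-OE. That is 12.5% of the 8, where 35.9% of all 16260 tested genes passed (19.1% higher and 16.9% lower). TCF7 was also the only one of these genes with an unadjusted p under 0.05 (0.00355, edgeR). None met the study's thresholds of an unadjusted p under 0.01 with a fold over 1.5, which 2.38% of all tested genes met. These thresholds were applied here to the edgeR results, whereas the study applied them to results from DESeq2. The median log2 fold change of the 8 genes was -0.01, with 4 above and 4 below 0, and that of all tested genes was 0.00. The 95% intervals of all 8 fold changes lay between 0.724 and 1.22, so each interval excluded a change of 1.5-fold in either direction. In bulk RNA, a change in the share of cells that express a gene and a change in RNA per cell cannot be told apart.

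**Figure D1:**
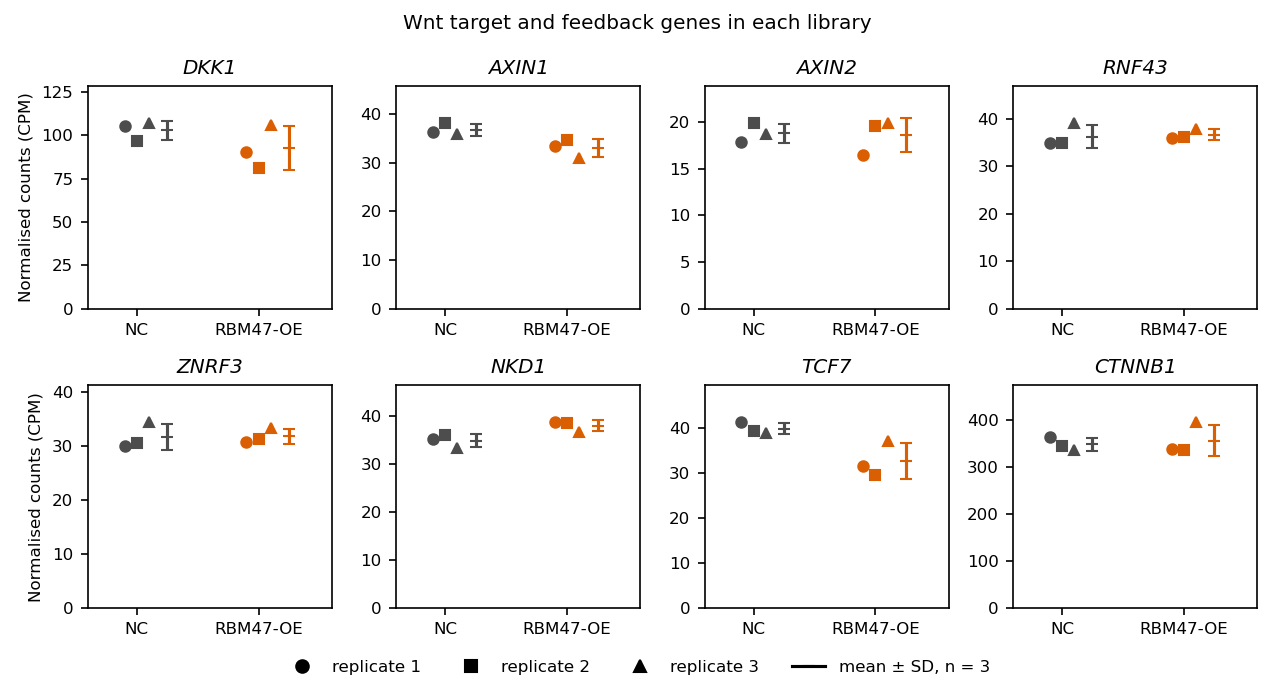
Normalised counts (CPM after TMM scaling, vertical axes from 0) of the 8 tested genes in each NC and RBM47-OE library, with the mean ± SD (n = 3) beside the points. The groups overlap for DKK1, AXIN2, RNF43, ZNRF3 and CTNNB1, and RBM47-OE replicate 3 (triangle) is the highest of its group for all genes shown but AXIN1 and NKD1.

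DKK1, the secreted antagonist, did not pass the test, and its RBM47-OE libraries were spread widely. Over replicates 1, 2 and 3 it stood at 105, 96.7 and 107 CPM with NC and at 90.1, 81.1 and 106 CPM with RBM47-OE. RBM47-OE replicates 1 and 2 lay below all NC libraries, while replicate 3 lay among them. The means were 102.9 ± 5.47 and 92.4 ± 12.6 CPM (SD, n = 3), and the log2 fold change was -0.16 (SE 0.0828, 95% interval -0.33 to 0.01, edgeR adjusted p = 0.148). The exact two-sided permutation test on CPM gave p = 0.3, where 3 against 3 libraries cannot go below 0.1. With 1 RBM47-OE library left out, the log2 fold change was -0.13 without replicate 1 (adjusted p = 0.219), -0.07 without replicate 2 (adjusted p = 0.570) and -0.27 without replicate 3 (adjusted p = 0.0131, edgeR).

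The 5 genes whose profile over the 6 libraries was closest to that of DKK1 were VDR, PTMAP4, MAPK1IP1L, SHQ1 and NR2F2. Likeness was the root mean square difference in log2 CPM, each gene being centred on its NC mean. It was 0.0407 for VDR, the vitamin D receptor, 0.0435 for PTMAP4, 0.0457 for MAPK1IP1L, 0.0465 for SHQ1 and 0.0474 for NR2F2, an orphan nuclear receptor. Of 14005 genes, 233 (1.66%) lay within 0.1 of DKK1, and how many genes lie this near to other genes was not counted.

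The AXIN scaffolds of the destruction complex did not pass the test. AXIN1, which unlike AXIN2 is not a typical Wnt target, had 36.3, 38.2 and 35.9 CPM in NC and 33.4, 34.6 and 31.0 CPM in RBM47-OE. Every RBM47-OE library was below every NC library in CPM, while the FPKM of the groups overlapped (4.13, 4.37 and 4.11 against 3.93, 4.26 and 3.72), and the log2 fold change of -0.16 (SE 0.0822, edgeR adjusted p = 0.146) did not pass. AXIN2, the classical feedback target of β-catenin, had 17.8, 19.9 and 18.7 CPM in NC and 16.5, 19.6 and 19.9 CPM in RBM47-OE. RBM47-OE replicate 1 was the lowest library and the other RBM47-OE libraries lay within the NC range, and the log2 fold change was -0.02 (SE 0.101, 95% interval -0.22 to 0.19, edgeR adjusted p = 0.916).

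The ubiquitin ligases that clear Frizzled gave nearly equal levels in NC and RBM47-OE. RNF43 had 34.9, 34.9 and 39.1 CPM in NC and 35.9, 36.2 and 38.0 CPM in RBM47-OE, with a log2 fold change of 0.02 (SE 0.0822, 95% interval -0.15 to 0.18, edgeR adjusted p = 0.906). ZNRF3 had 29.95, 30.5 and 34.3 CPM in NC and 30.8, 31.2 and 33.3 CPM in RBM47-OE, with a log2 fold change of 0.01 (SE 0.0860, 95% interval -0.17 to 0.18, edgeR adjusted p = 0.958). For both genes the highest NC library was replicate 3, and all RBM47-OE libraries lay inside the NC range.

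RNF43 shares 4326 exonic bases on the same strand with a readthrough gene (RP5-1171I10.8, ENSG00000285897.1), so the split of reads between them is uncertain. The readthrough gene had 1959, 2586 and 2262 counts in NC and 2733, 2972 and 2385 in RBM47-OE, more than RNF43 with its 916 to 1208. Its log2 fold change was 0.18 (SE 0.0728, edgeR adjusted p = 0.0599), and with the counts of both genes added it was 0.13 (SE 0.0702, edgeR adjusted p = 0.168). The sum was chosen after the values were seen.

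NKD1, which binds Dishevelled and dampens the signal, had 35.3, 36.0 and 33.3 CPM in NC and 38.7, 38.6 and 36.7 CPM in RBM47-OE. Every RBM47-OE library was above every NC library, in FPKM as well (1.74, 1.79 and 1.66 against 1.98, 2.06 and 1.91 FPKM). The exact two-sided permutation p was 0.1, the smallest possible here, and the log2 fold change of 0.12 (SE 0.0804, 95% interval -0.04 to 0.29, edgeR adjusted p = 0.250) did not pass the test.

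TCF7, a DNA-binding partner of β-catenin, was the gene that passed. It stood at 41.3, 39.3 and 39.0 CPM with NC and at 31.5, 29.5 and 37.3 CPM with RBM47-OE, and the means were 39.9 ± 1.26 and 32.8 ± 4.03 CPM (SD, n = 3). All RBM47-OE libraries were lower than all NC libraries, although replicate 3 came close to them. The log2 fold change was -0.28 (SE 0.0887, 95% interval -0.47 to -0.10, edgeR adjusted p = 0.0141), a fold of 0.821. In FPKM the groups touched, with 3.34 in both NC replicate 3 and RBM47-OE replicate 3. The call was lost without NC replicate 1 (log2 fold change -0.26, adjusted p = 0.0716, edgeR) and without RBM47-OE replicate 2 (-0.21, adjusted p = 0.0945), with library totals in place of TMM (-0.22, adjusted p = 0.0578), and with limma on log2(FPKM + 1) (-0.17, adjusted p = 0.144). TCF7 also shares 210 exonic bases with SKP1 on the opposite strand, a gene of 6224 to 8112 counts per library, and strand use in the counting is not given in the sources used here.

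CTNNB1, which encodes β-catenin itself, had 365, 346 and 336 CPM in NC and 339, 336 and 396 CPM in RBM47-OE. RBM47-OE replicate 3 was the highest library and the other RBM47-OE libraries lay within the NC range. The means were 349.0 ± 14.6 and 357.0 ± 33.8 CPM (SD, n = 3), and the log2 fold change was 0.03 (SE 0.0754, 95% interval -0.12 to 0.19, edgeR adjusted p = 0.775).

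AXIN1, TCF7 and NKD1 were thus the 3 of 8 genes (37.5%) whose groups did not overlap in CPM, where 46.5% of all tested genes did not overlap (23.2% higher and 23.4% lower in RBM47-OE). The median over the 8 genes of the centred log2 CPM went from -0.09 and -0.03 for RBM47-OE replicates 1 and 2 to 0.07 for replicate 3, and lay between -0.02 and -0.000815 for the NC libraries.

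Differences between RBM47-OE and NC went with exonic GC content over the whole transcriptome. Exonic GC content was taken over the merged exons of all annotated transcripts of a gene, which need not match the RNA expressed here. The 8 tested genes range in it from 40.9% (CTNNB1) to 63.9% (AXIN1). Across 16233 genes, Spearman's rho between exonic GC content and the difference from the NC mean lay between -0.674 and -0.414 for the RBM47-OE libraries and between -0.162 and 0.127 for the NC libraries, and was lowest for RBM47-OE replicate 3. These genes share their libraries, so the values are descriptions. A fit with a per-library offset that takes out this trend, whatever its source, called 14.5% of all genes (5.97% higher and 8.57% lower). In it 3 of the 8 genes passed, 1 higher and 2 lower, and TCF7 was not among them.

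With the GC offset, DKK1 (44.5% exonic GC) had a log2 fold change of -0.28 (SE 0.0728, 95% interval -0.44 to -0.13, edgeR adjusted p = 0.0110). CTNNB1 (40.9% GC) turned from 0.03 to -0.22 (SE 0.0619, edgeR adjusted p = 0.0176). NKD1 (51.7% GC) had 0.23 (SE 0.0645, edgeR adjusted p = 0.0213). TCF7 (56.3% GC) moved to -0.11 (95% interval -0.28 to 0.06, edgeR adjusted p = 0.420). AXIN1 turned to 0.06 (adjusted p = 0.625, edgeR), and AXIN2 (0.15), RNF43 (0.10) and ZNRF3 (0.14) did not pass, with adjusted p of 0.332, 0.399 and 0.227. The offset lowers the fold change of genes low in GC and raises that of genes high in GC by construction. Whether the GC trend is technical was not tested.

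**Figure D2:**
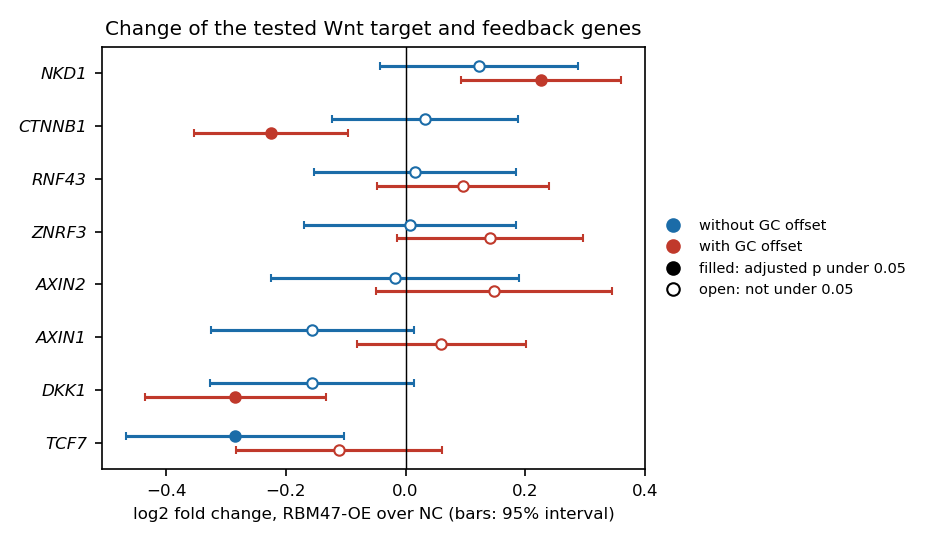
Log2 fold change of RBM47-OE over NC (horizontal axis) for the 8 tested genes, with bars for the 95% interval, in edgeR fits without (blue) and with (red) the GC offset; filled points have an adjusted p under 0.05. Without the offset TCF7 alone is filled at -0.28, and with it DKK1 (-0.28), CTNNB1 (-0.22) and NKD1 (0.23) are filled.

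The other genes of the Wnt pathway were read from a list of 103, sorted by role, of which 91 had a row and 79 were tested. In RBM47-OE 15 of the 79 were higher, 12 were lower and 52 did not pass, in all 34.2% called against 35.9% of all genes. The median log2 fold change was -0.05. The direction went with base composition: the 15 higher genes had 35.0% to 46.2% exonic GC (median 41.0%) and the 12 lower genes 51.7% to 67.3% (median 57.6%). Spearman's rho across the 79 genes between exonic GC content and log2 fold change was -0.601, beside -0.635 over all genes, and 0.05 with the GC offset. With that offset 4 of the 79 passed, all higher: WNT16, WNT3, LGR4 and KREMEN1. That is 5.06%, beside 14.5% of all genes.

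**Figure D3:**
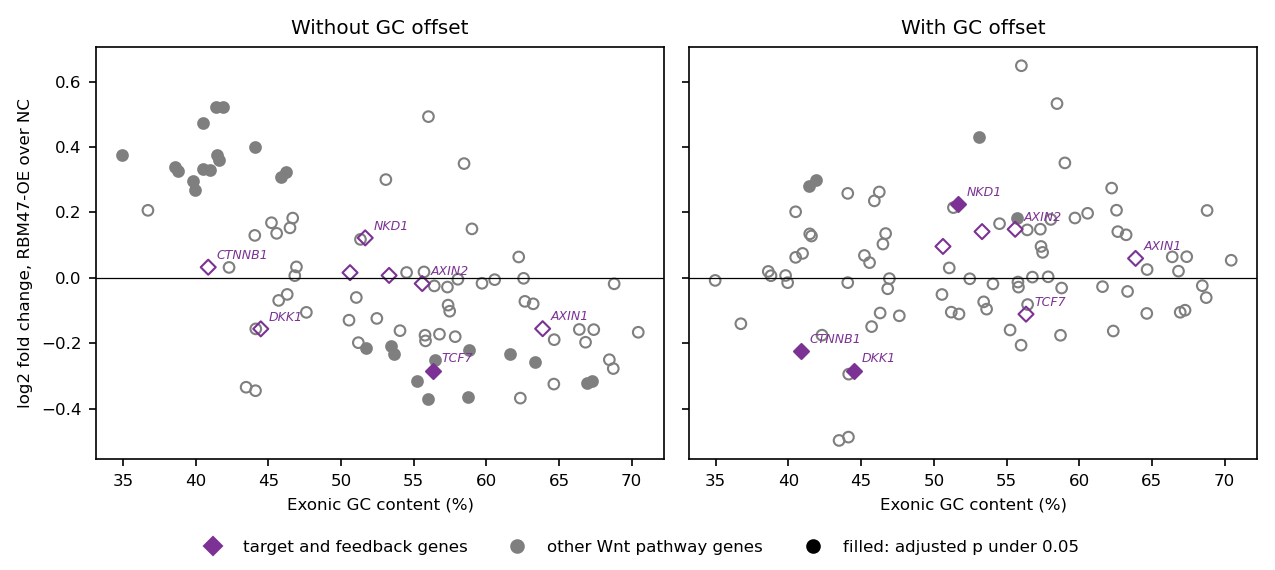
Log2 fold change of RBM47-OE over NC (vertical axis) against exonic GC content in percent (horizontal axis) for the 8 tested target and feedback genes (diamonds) and 79 other Wnt pathway genes (circles), without (left) and with (right) the GC offset; filled symbols have an adjusted p under 0.05. On the left the filled circles run from higher genes at 35.0% to 46.2% GC to lower genes at 51.7% to 67.3%, and on the right 4 circles are filled.

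Of 13 tested ligands, 1 was higher and 1 lower. WNT16, the most abundant ligand, had 98.8, 94.2 and 101 CPM in NC and 140, 135 and 149 CPM in RBM47-OE, with no overlap. Its log2 fold change of 0.52 (SE 0.0706, edgeR adjusted p = 2.72e-05) became 0.30 (adjusted p = 0.00166) with the GC offset. WNT10B was lower (-0.36, adjusted p = 0.0109), and with the offset it was -0.18 (adjusted p = 0.231). WNT3, a canonical ligand, had a log2 fold change of 0.30 (adjusted p = 0.0887) and 0.43 (adjusted p = 0.0264) with the offset. Among 4 tested genes for ligand processing and R-spondins, 1 passed, PORCN, the acyltransferase that lipidates Wnt proteins, at -0.37 (adjusted p = 0.0300, edgeR). With the offset it was at -0.21 (adjusted p = 0.285, edgeR). The PORCN groups overlapped in CPM, as NC replicate 1 (7.76) lay below RBM47-OE replicate 1 (7.85). WLS, the Wnt transporter, had 0.03 (adjusted p = 0.782).

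Of 15 tested receptors, 7 were higher and 1 lower (53.3%, beside 35.9% of all genes), with a median log2 fold change of 0.12, and with the GC offset 1 passed (6.67%, beside 14.5%). LGR4, a relative of LGR5 that also binds R-spondins, had 10.1, 11.1 and 11.7 CPM in NC and 14.7, 16.03 and 16.8 CPM in RBM47-OE. The log2 fold change was 0.52 (SE 0.108, edgeR adjusted p = 0.000674), and with the GC offset 0.28 (adjusted p = 0.0484). LRP6, the co-receptor that DKK1 blocks, was higher by 0.33 on the log2 scale (SE 0.0826, adjusted p = 0.00304), and with the offset it was 0.07 (adjusted p = 0.491). LRP5, its relative and the most abundant receptor at 15.03 FPKM in NC, was at -0.07 (adjusted p = 0.450). FZD3 (0.38), RYK (0.33) and ROR1 (0.40) were higher, and with the offset they were at -0.01, 0.06 and 0.26 and did not pass. ROR1 also did not pass in 5 of the 6 fits without 1 library (adjusted p from 0.0591 to 0.171).

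Of 7 tested extracellular and membrane inhibitors, 2 were lower and 5 did not pass. NOTUM, an enzyme that strips the lipid from Wnt proteins, was at -0.32 (SE 0.106, edgeR adjusted p = 0.0188), and with the GC offset at -0.11 (adjusted p = 0.487). The NOTUM call was also lost with library totals (adjusted p = 0.0589) and in 5 of the 6 fits without 1 library (adjusted p from 0.0563 to 0.0705). The other lower gene was NKD2, the paralog of NKD1, at -0.32 (adjusted p = 0.0229, edgeR) and -0.10 with the offset. Its groups overlapped in CPM, as NC replicate 1 (17.96) lay below RBM47-OE replicate 1 (18.67). KREMEN1, a receptor for DKK1 and the most abundant of these inhibitors, was at 0.02 (adjusted p = 0.877), and at 0.18 (adjusted p = 0.0394) with the offset.

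Of 14 tested Dishevelled and destruction complex genes, 6 were higher and 2 lower (57.1%, beside 35.9% of all genes), and with the GC offset the smallest adjusted p among the 14 was 0.0762, for APC. APC, the complex's tumour suppressor, had 21.7, 21.4 and 20.02 CPM in NC and 25.001, 31.5 and 31.2 CPM in RBM47-OE. The log2 fold change was 0.48 (SE 0.0975, edgeR adjusted p = 0.000642), and with the offset 0.20. TNKS and TNKS2, the tankyrases that mark AXIN for degradation, were higher by 0.36 and 0.38 on the log2 scale (adjusted p = 0.000456 and 0.00140). With the offset they were at 0.13 each. The GSK3 paralogs went apart, GSK3A at -0.32 (adjusted p = 0.00320) and GSK3B at 0.27 (adjusted p = 0.00449), and with the offset they were at -0.16 and -0.01. DVL1, the most abundant gene of the role, was at -0.16 (adjusted p = 0.0731).

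Of 12 tested nuclear factors, 3 were lower and 9 did not pass. BCL9L (-0.26, adjusted p = 0.00560) and BCL9 (-0.23, adjusted p = 0.0277), coactivators of β-catenin, and the corepressor CTBP1 (-0.23, adjusted p = 0.0146) were lower, and with the GC offset they were at -0.04, -0.10 and -0.03. Without NC replicate 2 none of these 3 passed (adjusted p = 0.0532, 0.126 and 0.0936 for BCL9L, BCL9 and CTBP1, edgeR). TCF7L2, the main TCF factor of the colon, had 16.7 FPKM in NC and 17.6 FPKM in RBM47-OE, with a log2 fold change of 0.01 (SE 0.0713, adjusted p = 0.955). LEF1 had 0 to 3 counts per library and was not tested. HDAC1, the most abundant of the role, was at -0.13 (adjusted p = 0.147).

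Of 14 other target genes, 1 was higher and 2 were lower. MYC had 216, 227 and 237 CPM in NC and 209, 178 and 198 CPM in RBM47-OE, with no overlap. The log2 fold change was -0.22 (SE 0.0734, edgeR adjusted p = 0.0235), and with the GC offset -0.11 (adjusted p = 0.250). The MYC call was also lost with library totals (adjusted p = 0.0708) and without NC replicate 2, NC replicate 3 or RBM47-OE replicate 2 (adjusted p = 0.0948, 0.142 and 0.116). CCND1, the most abundant target at 135.1 ± 7.16 FPKM in NC and 130.2 ± 14.9 FPKM in RBM47-OE (SD, n = 3), was at -0.12 (adjusted p = 0.243). SP5, a repressor that β-catenin induces, had 2.70, 2.60 and 2.33 CPM in NC and 2.06, 2.24 and 2.55 CPM in RBM47-OE, at -0.16 (SE 0.201, adjusted p = 0.580). BMP4 (-0.21, adjusted p = 0.0435) was lower and SLC12A2 (0.34, adjusted p = 0.00302) higher, and with the offset they were at -0.07 and 0.02. BMP4 also did not pass with DESeq2 (adjusted p = 0.0544).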

How the data were processed

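RNA-seq counts of 3 NC and 3 RBM47-OE libraries of HCT116 cells were used, each harvested at 48 h. The authors trimmed reads with FASTX-Toolkit, used HISAT2 for alignment against GRCh38, and deposited 2 tables: raw counts of uniquely mapped reads per gene, and FPKM of the same alignments. The counting tool, annotation release and strand setting are not given in the sources used here, and the methods and labels name different library kits (KC stranded and NEBNext directional). Total counts per library ranged from 26792409 to 35477983.

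Counts were tested with edgeR 4.0.16 in R 4.3.3 (filterByExpr with minimum count 10 and minimum total 15, TMM factors, quasi-likelihood test, group as the only term) on all 16260 genes that passed, with Benjamini-Hochberg adjustment over all of them. CPM used TMM-scaled totals, and centred log2 CPM a prior count of 2. Exonic GC content (merged exons of all annotated transcripts), coordinates and canonical 3′ UTRs came from GENCODE release 44, matched by gene identifier. The GC offset was a loess curve (span 0.3) per library. Alternatives were DESeq2 1.42.0, RLE factors or library totals in place of TMM, omission of the filter or a minimum of 10 counts per library, a block on the replicate number, the GC offset with and without this block, the study's thresholds, omission of each library in turn, and limma 3.58.1 on log2(FPKM + 1) or log2(FPKM + 0.1) where mean FPKM reached 0.1. Tests on simulated data without a GC trend and with 200 genes changed by a log2 fold of 1 recovered 200 of 200 with edgeR, with and without the GC offset and the block, with DESeq2 and with limma. The changed genes were drawn from genes with high counts, and their change was larger than that of any tested Wnt target or feedback gene. Recovery of smaller changes was not tested. With a simulated GC trend, unchanged genes called numbered 2179 of 16026 genes run in edgeR and 11 with the GC offset. That trend was an artefact by design, with the same slope in all RBM47-OE libraries. Whether it resembles the trend in the real libraries was not tested.

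The genes, the pathway list and the marker lists were chosen with earlier results of these data known. The text names all 10 genes. Of each pathway role it names up to 4 called genes without overlap between groups by size of change, and the most abundant gene. It also names MYC, CCND1, SP5, LEF1, TCF7L2, APC, LRP6, GSK3B and RBM47, and the 5 genes nearest to DKK1 among those with a mean log2 CPM of at least 0. WNT3, PORCN, NKD2 and the readthrough gene over RNF43 were added after their values were seen. The pathway genes WNT9B, RSPO3, FZD10, DKK2, SFRP2, SFRP5, WIF1, SOST, APCDD1, TLE4, SMOC2 and OLFM4 and the markers COL1A2, DCN, LUM and PTPRC were not analysed here.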

Additional observations from a re-analysis of the deposited data

How the results depend on the processing

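Of the 10 Wnt target and feedback genes, 1 was called (TCF7), and the count was again 1 with DESeq2, RLE factors, the replicate block, and either change of the filter on low counts. It was 0 with library totals, with limma on either FPKM scale and at the study's thresholds, and 3 with the GC offset, alone or with the block. With each library left out in turn it was 0 to 2: 2 without RBM47-OE replicate 3 (TCF7 and DKK1), and 0 without NC replicate 1 or without RBM47-OE replicate 2. The adjusted p over the alternatives ranged from 0.00217 to 0.420 for TCF7, from 0.000404 to 0.570 for DKK1, from 0.0213 to 0.553 for NKD1 and from 0.0170 to 0.976 for CTNNB1. DKK1 and TCF7 stayed below 0 and NKD1 above 0 in every alternative, AXIN1 turned only with the GC offset, and AXIN2, RNF43 and ZNRF3 changed sign without passing the test. For the other pathway genes the count of 27 became 4 with the GC offset, 5 with the offset and block, 0 at the study's thresholds and 15 to 37 with a library left out (37, with 17 higher and 20 lower, without RBM47-OE replicate 1; 15 and 17 without NC replicates 2 and 3; and 16 without RBM47-OE replicate 2). For all genes 5840 became 2364, 2498 and 387 under the first 3 of these, and 3765 (without NC replicate 2) to 7372 (without RBM47-OE replicate 1). Library totals, which moved the median of all genes by 0.06 (log2), gave 3693 higher and 1889 lower genes beside 3100 and 2740, and 17 and 4 pathway genes beside 15 and 12. CTNNB1 reversed to -0.22 with the GC offset and -0.23 with the offset and block. FZD3 was at -0.007854 and -0.008134, and GSK3B at -0.01473 and -0.01463, in the same fits. The cause of these changes was not tested. RBM47 stayed between 5.42 and 5.998 on the log2 scale.

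No pairing of the libraries by replicate number was seen: deviations of same-numbered NC and RBM47-OE libraries had correlations of -0.06, -0.01 and -0.02. Pairs with different numbers had -0.02 to 0.04. Values this near 0 cannot show that same-numbered libraries were prepared apart. With the replicate block 1 of the 8 tested genes, 25 pathway genes and 5467 of all genes were called, and of the named genes ROR1 (adjusted p = 0.0512) and BMP4 (adjusted p = 0.0576) were no longer called. LGR5 and ASCL2, with counts at or near 0, could not be tested.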
